A study of Mus musculus with 12 samples.

Results

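Fatty acid oxidation in the injured kidney was examined through 9 genes: the transcription factor gene Ppara, its coactivator gene Ppargc1a, and the enzyme genes Cpt1a, Cpt2, Acadm, Acadl, Ehhadh, Hadha and Hadhb. They were found by their symbols, all 9 of them, among the 50433 gene symbols of the table for renal tubular epithelial cells (TECs) and the 50434 of the table for neutrophils (PMN). All mice were wild-type and all had undergone ischemia-reperfusion injury (IRI), in which the renal pedicles were clamped for a time and then released, so that no uninjured kidney was part of the comparison. The mice received glutamine or the vehicle, saline, intravenously. Cells were taken 24 hours after IRI, TECs by sorting CD45- Prominin-1+ cells from kidney and PMN from peripheral blood, with 3 glutamine and 3 vehicle libraries for each cell type. The question was whether transcripts of the fatty acid oxidation pathway differed between glutamine and vehicle in each of these cell types.

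The proximal tubule is known to meet most of its energy demand by burning fatty acids, and loss of this capacity accompanies tubular injury. Long-chain fatty acids are activated to acyl-CoA, carried into mitochondria by the carnitine shuttle, and shortened in repeated cycles of dehydrogenation, hydration, a second dehydrogenation and thiolysis. PPARα, with PGC-1α as coactivator, drives transcription of many of these enzymes, whereas circulating neutrophils rely mainly on glycolysis.

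In TECs, transcripts of 8 of the 9 genes were lower with glutamine than with vehicle, by 12.6% for Hadha up to 38.3% for Ehhadh, and Ppara was 12.7% higher. None of these differences passed the test across all genes. The median log2 fold change of the 9 genes was -0.38, against 0.01 over all 14734 genes tested, and 49.4% of all tested genes were lower. Among the 8416 tested genes with a mean of at least 10 CPM (counts scaled to library size), 51.9% were lower. With the quasi-likelihood test of edgeR, an adjusted p below 0.05 was reached by 0 of the 9, and an unadjusted p below 0.05 also by 0. The share of all tested genes was 0% for the former and 12.8% for the latter (5.52% lower, 7.23% higher), with a smallest adjusted p of 0.101. DESeq2 called 247 genes (1.94% of those it tested), 0 of them among the 9. In 2 of the 9 genes, Acadl and Hadha, all glutamine libraries lay below all vehicle libraries, a pattern found in 9.81% of all tested genes.

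**Figure D1:**
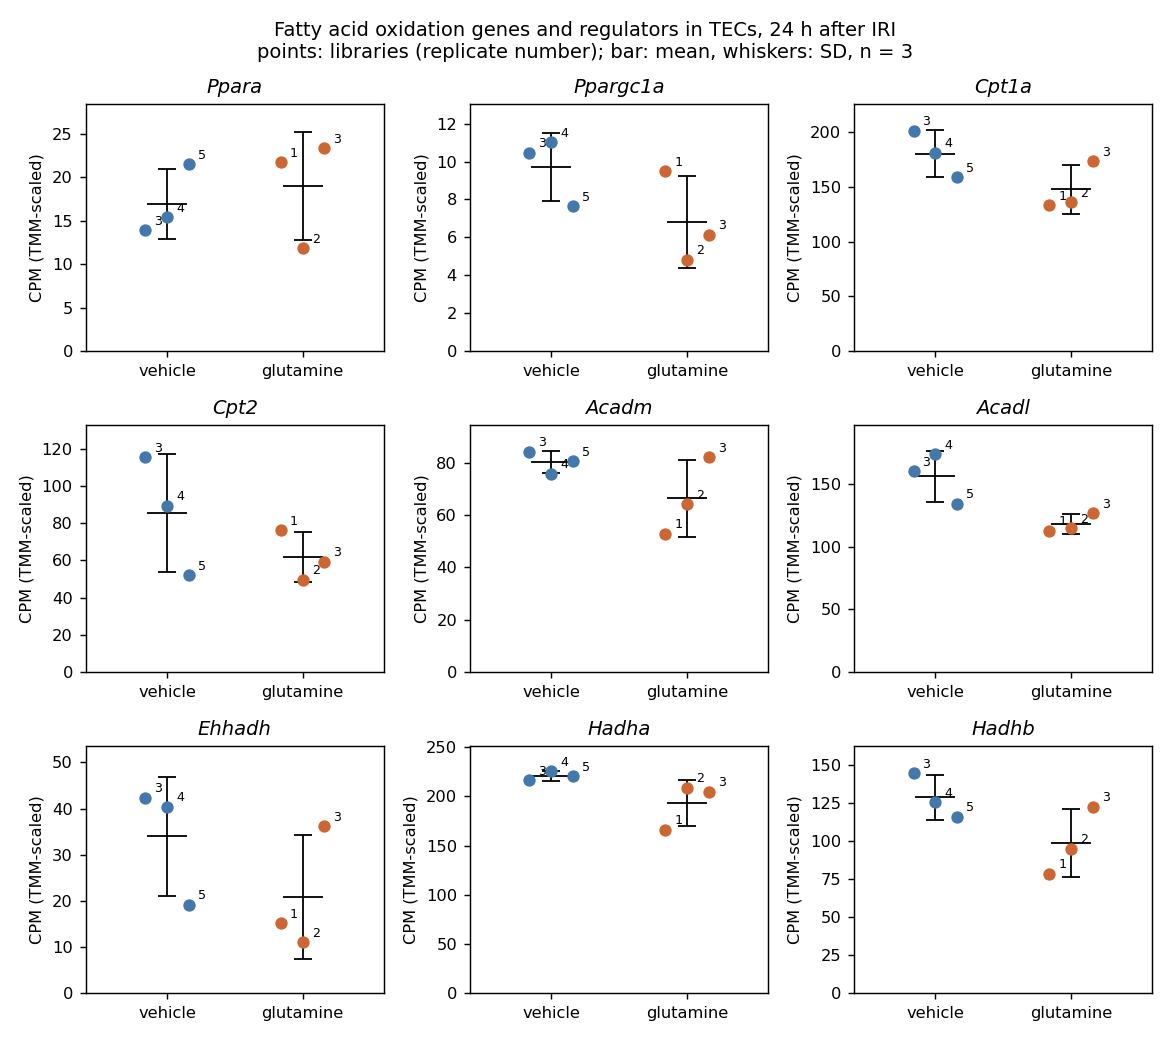
Expression of the 9 genes in TECs in CPM (linear axis from 0), each point 1 library with its replicate number, with the mean and SD of the 3 libraries per group. The groups are apart in Acadl and Hadha and overlap in the other 7 genes, and vehicle 5 lies near the glutamine libraries for Cpt2 and near glutamine 1 and 2 for Ehhadh.

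The TEC libraries held 5397371 to 10223463 counts, with the fewest in glutamine 2, and the PMN libraries 20226512 to 21879769. Prom1, which encodes the sorting antigen of TECs, lay at 64.6 to 83.5 CPM in the TEC libraries, and Ptprc, which encodes CD45, at 0.10 to 2.74 CPM. In TECs both were higher with glutamine, 1 of them without overlap, as were 9% of all tested genes, and 0 had an unadjusted p below 0.05 by edgeR. Their sum was 85.8, 83.9 and 77.7 CPM in glutamine 1, 2 and 3 and 66.1, 71.7 and 76.6 CPM in vehicle 3, 4 and 5. The PMN libraries held the neutrophil transcript S100a8 at 6598 to 29022 CPM, and 12 neutrophil markers summed to 23986 to 74640 CPM. They also held macrophage markers, with a sum of 10759 to 25061 CPM over 10 genes and C1qa at 287 to 2568 CPM. In the glutamine library with the lowest neutrophil sum, 23986 CPM, the macrophage sum was higher, at 25061 CPM. The tubule gene Kap lay at 186 to 402 CPM. The part of the macrophage markers and of Kap in the PMN results was not tested. Labels did not state that each library came from a separate animal, so that p-values measured the spread between these samples only. In bulk RNA, fewer cells of a type and less RNA per cell cannot be told apart.

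The start regions of several of these genes are shown because the pathway is known for coordinated transcription, and because Hadha and Hadhb share theirs. Hadha (chr5:30118304-30155162, minus strand) and Hadhb (chr5:30155248-30184593, plus strand) lie head to head on GRCm38. Only 85 bases separate their outermost starts annotated in GENCODE M21 (chr5:30155163-30155247, plus strand, sequence from RefSeq GRCm38.p6). Upstream sequence is also shown for Acadl (chr1:66863310-66863559, minus strand), whose TEC groups did not overlap. Cpt1a (chr19:3323051-3323284, plus strand, in an intron of a longer annotated transcript) and Acadm (chr3:153944644-153944893, minus strand) are shown as the genes with a nuclear receptor half-site. Capitals mark the GC box GGGCGG and the half-site AGGTCA, searched on both strands, so that CCGCCC and TGACCT mark the same motifs on the other strand.
Hadha-Hadhb: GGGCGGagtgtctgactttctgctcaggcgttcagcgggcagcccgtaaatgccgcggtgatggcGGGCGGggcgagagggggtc
Acadl: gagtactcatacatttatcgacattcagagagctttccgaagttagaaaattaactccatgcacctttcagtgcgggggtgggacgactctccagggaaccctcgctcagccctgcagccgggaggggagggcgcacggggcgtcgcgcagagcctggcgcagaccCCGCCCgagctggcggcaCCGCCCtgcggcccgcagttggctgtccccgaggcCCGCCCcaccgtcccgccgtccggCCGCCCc
Cpt1a: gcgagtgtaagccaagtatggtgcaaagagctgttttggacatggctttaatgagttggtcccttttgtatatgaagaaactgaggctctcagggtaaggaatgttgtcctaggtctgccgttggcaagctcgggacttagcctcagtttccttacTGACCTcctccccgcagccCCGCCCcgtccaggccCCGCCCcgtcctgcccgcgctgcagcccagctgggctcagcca
Acadm: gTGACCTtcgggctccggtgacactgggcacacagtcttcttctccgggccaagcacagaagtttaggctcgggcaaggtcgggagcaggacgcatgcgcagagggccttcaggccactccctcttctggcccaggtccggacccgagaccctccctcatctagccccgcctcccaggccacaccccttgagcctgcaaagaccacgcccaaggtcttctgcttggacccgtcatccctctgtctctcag
Within 250 bases upstream of the RefSeq start, the GC box was present in 7 of the 9 genes (all but Ppargc1a and Acadm) and in 32.7% of all 32851 promoters. The windows of Hadha and Hadhb overlap and share a GC box, but were counted as separate promoters. The half-site was present in Cpt1a and Acadm and in 14.0% of all promoters. Neither the direct repeat AGGTCANAGGTCA, the class of site that PPAR and RXR bind (0.0335% of promoters), nor TCAAGGTCA, read by estrogen-related receptors (0.387%), occurred in these windows of the 9 genes. Both longer motifs contain the half-site. These are matches of letters and not measured binding.

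Both regulators were measured at few counts. Ppara (chr15:85734983-85802819, plus strand), which encodes the fatty acid-sensing nuclear receptor PPARα, lay at 21.7, 11.8 and 23.4 CPM in glutamine libraries 1, 2 and 3 and at 13.9, 15.4 and 21.5 CPM in vehicle libraries 3, 4 and 5. The lowest value belonged to glutamine 2, the shallowest library with 59 Ppara counts, the other glutamine values were above the highest vehicle value, and the groups overlapped. The log2 fold change was 0.17 (SE 0.33, 95% interval -0.54 to 0.89, edgeR adjusted p = 0.855), and it was -0.00 without glutamine 3.

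Ppargc1a (chr5:51454250-51567726, minus strand) encodes PGC-1α, the coactivator that links PPARα and estrogen-related receptors to mitochondrial gene transcription. It lay at 9.49, 4.82 and 6.14 CPM with glutamine and at 10.5, 11 and 7.64 CPM with vehicle. Glutamine 1 exceeded vehicle 5, and the other glutamine libraries lay below all vehicle libraries. With only 24 to 123 counts per library, the interval of the log2 fold change of -0.50 ran from -1.35 to 0.35 (SE 0.38, edgeR adjusted p = 0.612). It was -0.82 without glutamine 1 and -0.32 without glutamine 2. Values on either side of 0 thus lay within the error.

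The carnitine shuttle enzymes were both lower with glutamine, with overlap. Cpt1a (chr19:3322334-3385733, plus strand) encodes carnitine palmitoyltransferase 1A of the outer mitochondrial membrane, the malonyl-CoA-sensitive entry step of long-chain oxidation. It lay at 134, 136 and 174 CPM with glutamine and at 201, 182 and 159 CPM with vehicle. Glutamine 3 lay above vehicle 5 and was the only glutamine library within the vehicle range. Its log2 fold change was -0.29 (SE 0.20, 95% interval -0.73 to 0.16, edgeR adjusted p = 0.576).

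Cpt2 (chr4:107903981-107923610, minus strand) encodes the inner-membrane partner that returns the acyl group to CoA. It lay at 76.2, 49.6 and 59.4 CPM with glutamine and at 116, 89.4 and 52.0 CPM with vehicle. Vehicle 5 was the second lowest of the 6 libraries, so that the separation rested on vehicle 3 and 4. The log2 fold change was -0.47 (SE 0.29, 95% interval -1.12 to 0.18, edgeR adjusted p = 0.524) and ran from -0.73 without vehicle 5 to -0.20 without vehicle 3.

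Of the acyl-CoA dehydrogenases, Acadl came nearest to the threshold among the 9 genes. Acadl (chr1:66830839-66863277, minus strand) encodes long-chain acyl-CoA dehydrogenase, which opens the cycle on long-chain and branched substrates. It lay at 113, 115 and 127 CPM with glutamine and at 160, 174 and 134 CPM with vehicle. Every glutamine library was below every vehicle library, although glutamine 3 and vehicle 5 lay close together. The log2 fold change of -0.40 (SE 0.19) had an interval from -0.83 to 0.02, an unadjusted p of 0.0617 and an adjusted p of 0.414 by edgeR.

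Acadm (chr3:153922357-153944632, minus strand) encodes the medium-chain enzyme MCAD. It lay at 52.7, 64.1 and 82.1 CPM with glutamine and at 84.1, 75.8 and 80.5 CPM with vehicle. The vehicle libraries were tightly grouped, and glutamine 3 lay among them while glutamine 1 and 2 lay below. The log2 fold change was -0.27 (SE 0.22, 95% interval -0.76 to 0.21, edgeR adjusted p = 0.631), and it ran from -0.46 without glutamine 3 to -0.13 without glutamine 1.

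The steps after the first dehydrogenation are carried by Ehhadh in peroxisomes and by Hadha and Hadhb in mitochondria. Ehhadh (chr16:21761287-21787807, minus strand), the peroxisomal bifunctional enzyme and a classical PPARα target, lay at 15.1, 11 and 36.2 CPM with glutamine and at 42.3, 40.4 and 19.2 CPM with vehicle. The libraries formed a high set of vehicle 3, vehicle 4 and glutamine 3 and a low set of the other 3, so that each group was split. Its log2 fold change was the most negative of the 9 at -0.70, and also had the largest error (SE 0.44, 95% interval -1.66 to 0.27, edgeR adjusted p = 0.525). It was -1.37 without glutamine 3 (edgeR unadjusted p = 0.00583, adjusted p = 0.251) and -0.40 without glutamine 2.

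Hadha encodes the α subunit of the mitochondrial trifunctional protein, with hydratase and hydroxyacyl-CoA dehydrogenase activities. It lay at 166, 209 and 205 CPM with glutamine and at 216, 226 and 220 CPM with vehicle. The groups did not overlap, but glutamine 2 came within a few CPM of vehicle 3. The log2 fold change was the smallest among the genes that were lower, -0.19 (SE 0.19, 95% interval -0.61 to 0.22, edgeR adjusted p = 0.688), and -0.096 without glutamine 1.

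Hadhb encodes the β subunit, the thiolase that ends the cycle. It lay at 78.4, 95 and 123 CPM with glutamine and at 145, 126 and 116 CPM with vehicle. Glutamine 3 lay between vehicle 4 and vehicle 5 and the groups overlapped. The log2 fold change was -0.38 (SE 0.22, 95% interval -0.87 to 0.10, edgeR adjusted p = 0.492), and it ran from -0.57 without glutamine 3 to -0.24 without glutamine 1.

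**Figure D2:**
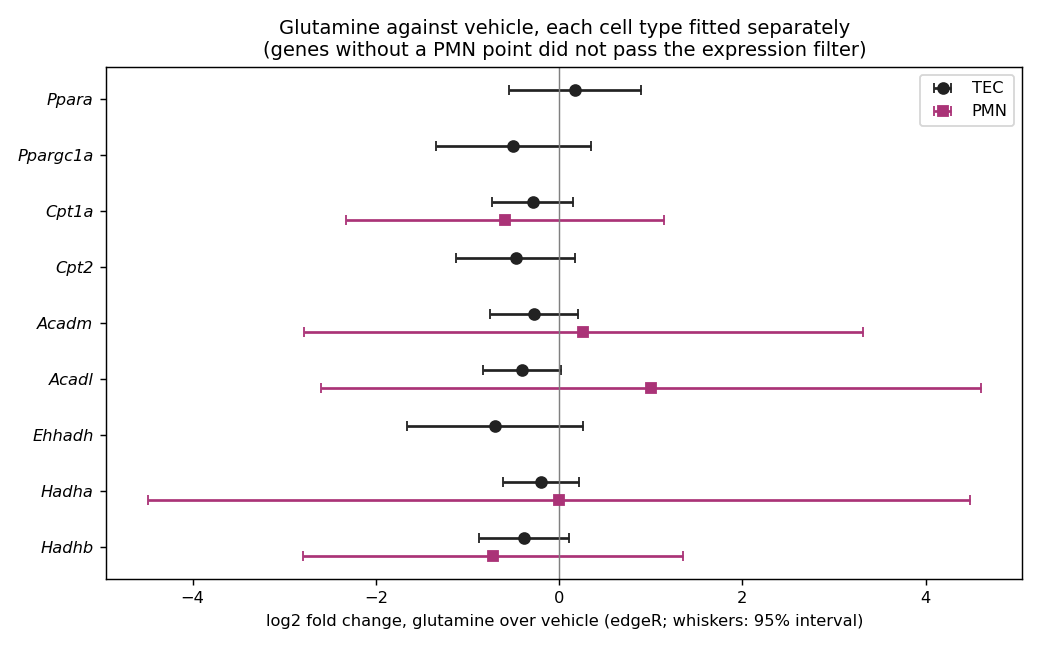
Log2 fold changes of glutamine over vehicle with 95% intervals from edgeR, for the 9 genes in TECs (circles) and the 5 tested genes in PMN (squares). All intervals include 0, and the widest TEC interval, that of Ehhadh from -1.66 to 0.27, is narrower than the PMN interval of Cpt1a, the narrowest there, from -2.32 to 1.14.

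Levels between genes were compared as CPM per kilobase of the longest annotated transcript, in vehicle TECs. Acadl was highest at 81.5 ± 10.5 (SD, n = 3), followed by Hadha at 55.0 ± 1.18. Below Hadha came Cpt1a at 41.8 ± 4.93, Acadm at 39.1 ± 2.03 and Cpt2 at 36.1 ± 13.5, which did not differ from each other beyond their spread. Hadhb followed at 29.3 ± 3.34, within the spread of Cpt2, then Ehhadh at 11.4 ± 4.31. The regulators were the lowest, Ppara at 4.96 ± 1.18 and Ppargc1a at 1.5 ± 0.28. With the length of all annotated exons instead, Cpt2 at 35.8 CPM per kilobase stood above Hadha at 25.3, so that the order in the middle depended on the length used, while Acadl remained highest and the regulators lowest.

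The spread of the 9 genes among libraries was uneven. On the log2 CPM scale the SD in the vehicle group was 0.03 for Hadha and 0.07 for Acadm but 0.58 for Cpt2 and 0.63 for Ehhadh, against a median SD of 0.37 over all tested genes. In the glutamine group Acadl varied least with an SD of 0.09 and Ehhadh most with 0.86. The summed CPM of the 9 genes was 666, 696 and 835 in glutamine libraries 1, 2 and 3 and 989, 939 and 810 in vehicle libraries 3, 4 and 5. Glutamine 3 thus held more of these transcripts than vehicle 5, and the groups overlapped in the sum.

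After centring each gene on its mean, profiles over the 6 TEC libraries were compared by their root mean square difference in log2 CPM. Acadm and Hadhb were the most alike pair with a difference of 0.09, followed by Cpt1a and Hadhb with 0.10 and Cpt1a and Acadl with 0.12. Hadha and Hadhb, which share a start region, differed by 0.19. Ehhadh and Ppara were the least alike pair with 0.79. Outside the 9 genes, the profile of Ppara was nearest to Edem1 (0.04), Washc4 (0.08), Gm2011 (0.08), Dus3l (0.08) and Lonrf1 (0.10). That of Ppargc1a was nearest to Mettl1 (0.05), Nsd1 (0.06), Znrf3 (0.08), Ap3s2 (0.09) and Smim15 (0.10). The mean profile of the 7 enzymes was nearest to Tsg101, Fth1, Ctsl, Ei24 and Sqor, each at 0.06. These likenesses describe 6 libraries, share their depth and scaling, and carry no test.

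Other genes of mitochondrial β-oxidation were divided in direction, and whether they differed from the 9 was not tested. Of 15 other tested genes of mitochondrial β-oxidation, 8 were higher and 7 lower (median log2 fold change 0.00), and 0 had an adjusted p below 0.05 by edgeR or DESeq2. In this list 3 acyl-CoA dehydrogenases of the ACAD family had an unadjusted p below 0.05 and no overlap, all of them higher with glutamine, against 7.23% higher at this p among all tested genes. Without overlap, 4 genes were higher, these and Echs1, and 1 was lower, Eci1, against 9% and 9.81% of all tested genes. Acad9, which also serves complex I assembly, had a log2 fold change of 0.80 (edgeR unadjusted p = 0.0130, adjusted p = 0.269). Acad12 followed with 0.90 (edgeR adjusted p = 0.311) and Acad10 with 0.71 (edgeR adjusted p = 0.375). The other acyl-CoA dehydrogenases of the list had log2 fold changes of 0.08 (Acads), -0.23 (Acad11) and -0.54 (Acadvl), each with overlap.

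Steps before and beside the mitochondrial cycle held genes on both sides. Of 10 tested genes of fatty acid uptake and activation, 5 were higher and 5 lower (median log2 fold change -0.02). Of 8 other genes of the carnitine shuttle and its malonyl-CoA control, 3 were higher and 5 lower (median -0.15). Of 15 other genes of peroxisomal oxidation, 7 were higher and 8 lower (median -0.03), with 1 unadjusted p below 0.05, that of Pecr, which was higher with overlap, near the 7.23% of all tested genes that were higher at this threshold. In ketone metabolism 4 of 6 genes were higher (median 0.18), in fatty acid synthesis 4 of 13 (median -0.09), and in lipid droplets and lipolysis 7 of 14 (median -0.00). The lipid droplet list held 1 gene lower at an unadjusted p below 0.05 (5.52% of all tested genes) and 1 lower without overlap. Without overlap, the synthesis list held 2 genes lower and 1 higher, against 9.81% and 9% of all tested genes.

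Other known PPARα targets were mostly lower with glutamine, as were the 9 genes, and several of the 9 are PPARα targets themselves. Of 14 tested, 11 were lower with glutamine and 3 higher, and their median on the log2 scale was -0.41, beside the 49.4% lower among all tested genes. In 2 the unadjusted p was below 0.05, both lower, against 5.52% of all genes. Acot2, a mitochondrial acyl-CoA thioesterase, lay at 103, 128 and 150 CPM with glutamine and at 204, 230 and 177 CPM with vehicle. Its groups did not overlap, and the log2 fold change was -0.68 (SE 0.21, edgeR unadjusted p = 0.00833, adjusted p = 0.245). Cyp4a14, a fatty acid ω-hydroxylase, had a log2 fold change of -2.14 (edgeR unadjusted p = 0.0201, adjusted p = 0.306) with overlap, since its lowest value, 3.67 CPM, was in vehicle 5 and its highest, 78.3 CPM, in vehicle 3.

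The split seen for Ehhadh recurred in Cyp4a10, a fatty acid ω-hydroxylase among these targets. It lay at 144 and 114 CPM in vehicle 3 and 4, at 43.2 CPM in vehicle 5, at 50.8 and 25.5 CPM in glutamine 1 and 2, and at 113 CPM in glutamine 3. It was chosen for display after its values were seen. Its groups overlapped, and its unadjusted p by edgeR was 0.218. Pdk4 and Angptl4, further well-known PPARα targets, had log2 fold changes of 0.05 and 0.06.

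Partners of PPAR and PGC-1 held genes on both sides, and whether they differed from all tested genes was not tested. Of 23 tested, 14 were higher and 9 lower, against 49.4% lower among all tested genes, and their median was 0.14 on the log2 scale. An unadjusted p below 0.05 was found for Ncor1, a corepressor (log2 fold change 0.55), and for Crebbp, a histone acetyltransferase (0.54), both overlapping and both with an edgeR adjusted p of 0.358. These 2 of 23 genes lie near the 7.23% of all tested genes that were higher at this threshold. Ep300, a further acetyltransferase, was higher without overlap at a log2 fold change of 0.53, as were 9% of all tested genes without overlap. Of the factors that work most directly with PGC-1α, Esrra had a log2 fold change of 0.30, Nrf1 of 0.15 and Tfam of -0.27, none with an unadjusted p below 0.05.

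**Figure D3:**
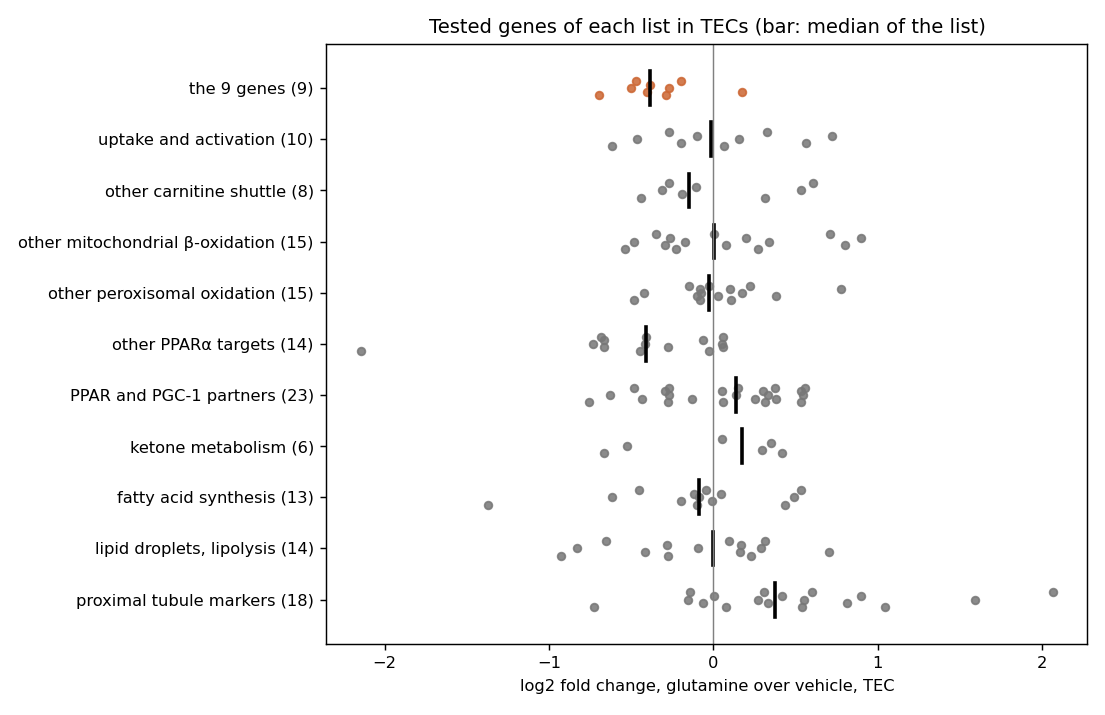
Log2 fold change of glutamine over vehicle in TECs for each tested gene of the lists named on the vertical axis, with the number of tested genes in parentheses and a bar at the median. The 9 genes have a median of -0.38 and other PPARα targets one of -0.41, while the medians of the other mitochondrial and peroxisomal oxidation genes lie near 0.

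Values that differed between the libraries in parallel are given here, and their part in the results above was not tested. Tubule injury markers summed to 13460, 11096 and 5279 CPM in vehicle 3, 4 and 5 and to 8231, 6831 and 5516 CPM in glutamine 1, 2 and 3. Of these 13 markers, 8 were lower with glutamine and 5 higher (median log2 fold change -0.21). An unadjusted p below 0.05 by edgeR was found for 1 of them, Havcr1, which was lower, as were 5.52% of all tested genes at this p. Havcr1, which encodes KIM-1, lay at 793, 541 and 106 CPM with vehicle and at 94.1, 49.4 and 26.2 CPM with glutamine. Vehicle 5, which lay with the glutamine libraries for Cpt2 and with glutamine 1 and 2 for Ehhadh, was also the vehicle library with the lowest Havcr1. Proximal tubule markers summed to 12881, 10896 and 19266 CPM with glutamine and to 15049, 15314 and 13445 CPM with vehicle, highest in glutamine 3. In this list 14 of 18 genes were higher with glutamine (median log2 fold change 0.37). Of the 18, 6 were higher at an unadjusted p below 0.05 (7.23% of all tested genes), and 3 of these had no overlap (9% of all tested genes), namely Slc7a13 (1.59, and 0.95 without glutamine 1), Slc5a2 (2.06, and 1.16 without glutamine 2) and Slc22a6 (0.60). Outside that list, Havcr1 was lower at an unadjusted p below 0.05 without overlap (-3.08, edgeR adjusted p = 0.178). Higher at such a p without overlap were Slc12a1 of the thick ascending limb (1.30), Calb1 of the distal tubule (0.77) and the macrophage gene Lyz2 (1.95, and 1.24 without glutamine 2). Of 6 thick ascending limb markers, 5 were higher and 1 lower (median log2 fold change 0.14). An unadjusted p below 0.05 by edgeR was found for 2 of them, both higher. Their sums overlapped, with 1392 to 2500 CPM with glutamine and 1153 to 2110 CPM with vehicle. Of 6 distal tubule markers, 6 were higher with glutamine (median log2 fold change 0.70), 3 of them at an unadjusted p below 0.05. Of the genes named above as without overlap, DESeq2 called Havcr1 (adjusted p = 0.0369), Slc7a13 (adjusted p = 0.00232) and Slc12a1 (adjusted p = 0.00833). Markers of erythroid cells and platelets summed to 6730 CPM in glutamine 2 and 4422 CPM in vehicle 5, against 809 to 1609 CPM in the other TEC libraries. Predicted and Rik genes, together with genes of sensory receptors, took 27.8, 26.3 and 30.8% of counts with glutamine against 17.5, 20.8 and 23.3% with vehicle, without overlap. Scaling without those genes moved the median of all genes by 0.05 and kept 8 of the 9 genes lower.

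In PMN, whose libraries are called a, b and c within each group in the order of the numbers in their labels, 4 of the 9 genes were too low to be tested, and the other 5 varied widely between libraries of the same group. Ppara had 0 counts in all 6 libraries, and Ppargc1a had 24 counts in glutamine b and 0 in the others. Cpt2 had 0 to 4 counts in 5 libraries and 819 in vehicle b. Ehhadh had 0 to 45 counts in 5 libraries and 1603 in the same vehicle b. That library stood apart in its markers too, since 8 endothelial markers summed to 1967 CPM in it against 2.76 to 92.0 CPM in the others, with Kdr at 618 CPM there and 0 elsewhere. Vehicle a stood apart by thick ascending limb markers, which summed to 1076 CPM against 4.24 to 43.5 CPM in the others. The part of these markers in the PMN values was not tested, and the values without both libraries follow further on.

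Cpt1a was the best-measured of the 9 genes in PMN. Its counts were 4653, 1972 and 1565 in glutamine libraries a, b and c and 6510, 5209 and 1361 in vehicle libraries a, b and c. The lowest and the highest count both belonged to vehicle libraries. Its log2 fold change was -0.59 (SE 0.73, 95% interval -2.32 to 1.14, edgeR adjusted p = 1.0), and it ran from -1.29 without glutamine a to -0.14 without vehicle a.

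The remaining genes also varied widely within each group. Acadl had 2324, 1134 and 1040 counts with glutamine and 5, 1231 and 1207 with vehicle, so that vehicle a nearly lacked it. Hadha had 5, 1313 and 699 counts with glutamine and 24, 756 and 1291 with vehicle, and here glutamine a and vehicle a nearly lacked it. These gaps did not follow the treatment. Hadhb had 2258, 855 and 1616 counts with glutamine and 1602, 6193 and 717 with vehicle, highest in vehicle b. Acadm had 128, 1204 and 912 counts with glutamine and 1076, 159 and 620 with vehicle, low in 1 library of each group.

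The log2 fold changes of these genes in PMN were 1.0 for Acadl (95% interval -2.59 to 4.6), -0.00 for Hadha (-4.49 to 4.49), -0.72 for Hadhb (-2.80 to 1.35) and 0.27 for Acadm (-2.78 to 3.31). Leaving out 1 library turned some of them. Hadhb was 0.48 without vehicle b, Acadm was -0.28 without glutamine b and -0.21 without vehicle b, and Hadha ran from -0.95 to 0.85. By edgeR, 0 of the 5 tested genes had an adjusted p below 0.05 (0% of 10134 genes tested) and 0 an unadjusted p below 0.05 (3.48% of them, 2.06% higher and 1.42% lower). With glutamine 3 of the 5 were lower, Hadha among them by a difference near 0, as were 50% of all tested genes. DESeq2 called 2.76% of the genes it tested and 0 of the 9. In 0 of the 5 were the libraries of the groups apart, against 5.86% of all genes apart with glutamine higher and 4.64% with glutamine lower. Without vehicle a and b, an alternative chosen after seeing the data, 6 of 7 genes then tested were higher and 1 lower. That fit turned Cpt1a to 1.08 and Hadhb to 1.21, with 1 vehicle library left whose spread was assumed to equal that of the glutamine group, and 0 of them had an unadjusted p below 0.05.

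**Figure D4:**
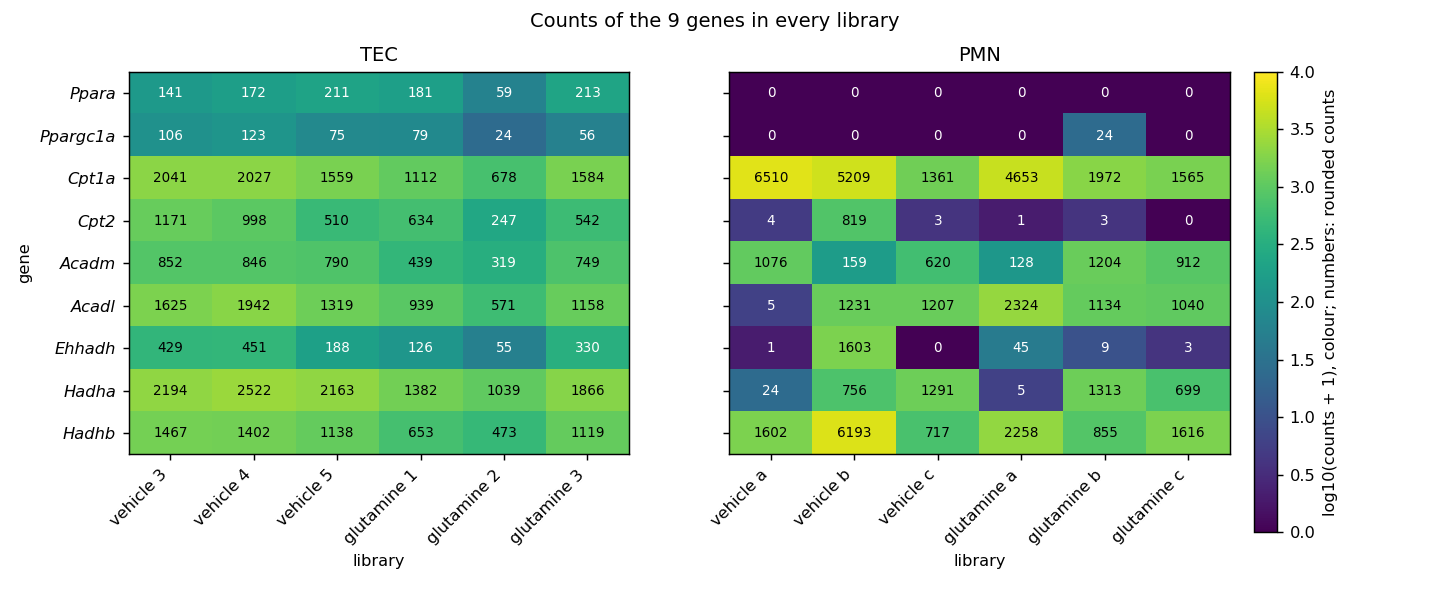
Rounded counts of the 9 genes in each TEC library (left) and PMN library (right), with colour on a log10(counts + 1) scale. TEC counts of a gene stay within a 10-fold range across libraries, whereas in PMN Cpt2 and Ehhadh appear mainly in vehicle b (819 and 1603 counts) and Hadha is nearly missing in vehicle a and glutamine a (24 and 5 counts).

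Ratios within a library showed the same contrast without depending on library scaling. The products of Hadha and Hadhb assemble into a single complex, and in TECs the ratio of their counts per kilobase was 1.63 to 2.40, a 1.47-fold range. In PMN it was 0.00242 to 1.97, an 813-fold range. The ratio of Acadl to Acadm was 1.65 to 2.45 in TECs and 0.00496 to 19.4 in PMN. The level of both ratios depends on the length used, here that of the longest annotated transcript, whereas their fold range does not. This was not particular to fatty acid oxidation, since 32.7% of all tested PMN genes had 10 or fewer counts in 1 library and 500 or more in another, against 0.0407% of tested TEC genes. The median SD of log2 CPM over all tested PMN genes was 1.14 in the vehicle and 1.1 in the glutamine group.

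**Figure D5:**
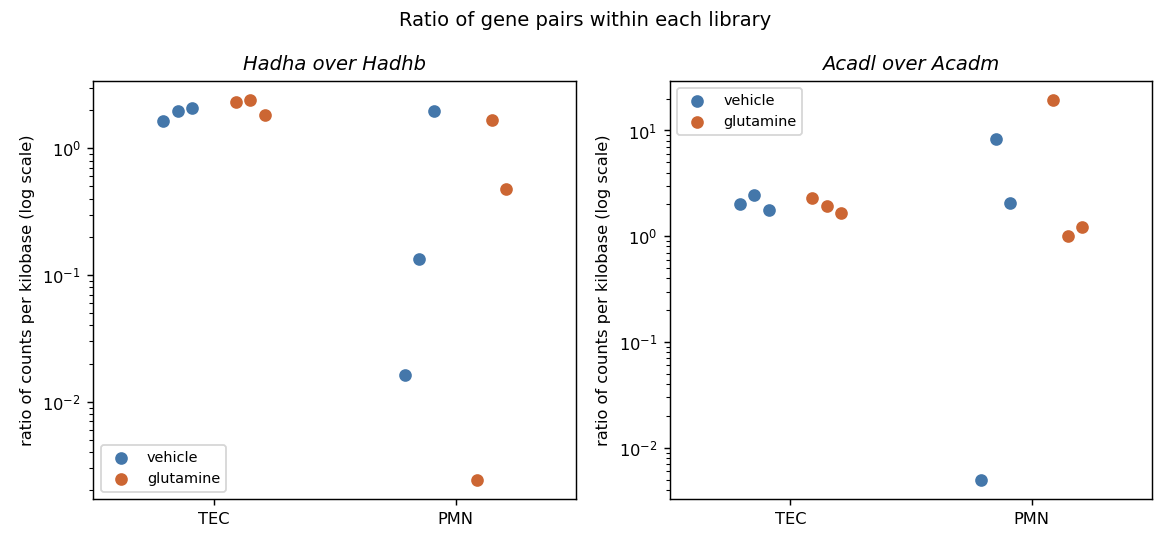
Ratio of Hadha to Hadhb (left) and of Acadl to Acadm (right) in counts per kilobase of the longest annotated transcript on a log axis, each point 1 library. TEC libraries lie between 1.63 and 2.40 for the first pair and between 1.65 and 2.45 for the second, and PMN libraries range from 0.00242 to 1.97 and from 0.00496 to 19.4.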

How the data were processed

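RNA-seq libraries of TECs and PMN from mice after IRI were analysed as gene tables. Per the labels, the authors reverse transcribed RNA from its polyA tail, sequenced single-end reads of 50 bases, and processed them with Trim Galore 0.6.4, Salmon 1.0.0, FastQC, MultiQC and DESeq2 on mm10 (submitters' processing notes). The annotation release is not given in the sources used here. Both deposited tables held estimated counts, which the authors had summed by gene symbol and left without normalization. The deposited PMN table, whose other values are estimated counts altered by a spreadsheet program, had extra points in 3.204% of cells and dates in 0.391%. In such cells the final point was taken for the decimal point, and dates were converted to the numbers they had replaced, which leaves an error below 1 count. Its paired columns of each library (Pearson r 0.992 to 0.994, against 0.576 to 0.657 between libraries) were averaged as 1 replicate.

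Counts were rounded and tested separately in each cell type with edgeR 4.0.16 (R 4.3.3): TMM scaling, default expression filter, quasi-likelihood test, Benjamini-Hochberg adjustment over all genes tested, threshold 0.05. SE was the fold change over the square root of F, and intervals used the fit's degrees of freedom. CPM used TMM-scaled library sizes. Alternatives were DESeq2 1.42.0, limma 3.58.1 (voom), other scalings and filters, single PMN columns and leaving out each library. The script was tested on simulated counts, in which the test missed most of the smaller changes in TECs and every change in PMN, so that an absence of calls does not show an absence of change. Lengths and positions came from GENCODE M21 (GRCm38), promoters from RefSeq (GRCm38.p6), matched by symbol for all 9 genes. The 9 genes, the other lists and the tests were chosen with earlier results of these data known. Named were the 9 genes, up to 4 genes per other list with the smallest unadjusted p below 0.05 and no overlap between the TEC groups, the 5 genes nearest in profile to Ppara, Ppargc1a and the enzyme mean, and the sorting markers. Other list genes named for their role or values were chosen after their values were seen. Some genes are not reported here.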

Additional observations from a re-analysis of the deposited data

How the results depend on the processing

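In TECs the direction of all 9 genes was kept under every alternative tried, except that Ppara was -0.00 (log2 fold change -0.00365) without glutamine 3, within a range of -0.00 to 0.41 when each library was left out. None of the 9 had an adjusted p below 0.05 under any of them. The unadjusted p was below 0.05 for 3 of the 9 without vehicle 5, for 2 without glutamine 3, for 2 with no filter on low counts and for 1 with upper-quartile scaling, against 0 as reported. The number of genes called in TECs was 0 with edgeR, 247 with DESeq2 and 425 with no filter. It ranged from 0 to 36 when each library was left out (36 without glutamine 2, 4 without vehicle 5), and the cause was not tested. Of the 9, 0 to 1 were higher when each library was left out, 0 without glutamine 3.

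In PMN 0 genes were called with edgeR and 326 with DESeq2. Of the 9, 2 of 5 tested were higher as reported. With at least 10 counts in every library it was 1 of 3, since fewer genes were tested, and without vehicle a and b 6 of 7. When each library was left out it was 1 to 3 of 5 or 6 (1 of 6 without glutamine b, 3 of 5 without glutamine a or vehicle b, 3 of 6 without vehicle c). It was 3 of 5 with upper-quartile scaling, scaling without predicted genes and either single column, and 3 of 8 with DESeq2 and with no filter. Without those 2 libraries the log2 fold change was 1.08 for Cpt1a and 1.21 for Hadhb. Leaving out each library gave -0.28 to 0.96 for Acadm (-0.21 without vehicle b), -1.18 to 0.48 for Hadhb (highest without vehicle b) -0.95 to 0.85 for Hadha, and 0.40 to 1.43 for Acadl (lowest without vehicle a), which was 2.76 with limma-voom. Hadha was also 0.080 with upper-quartile scaling, 0.017 with scaling without predicted genes, and 0.0043 and 0.0049 with the first and second column of each library. The cause was not tested.

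No paired analysis was made because the labels do not state pairs of libraries. Only replicate number 3 is common to both TEC groups, and none is common to both PMN groups.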

Other observations

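Acadvl, which encodes the very long-chain acyl-CoA dehydrogenase, lay at 1.20 to 2.85 CPM in TECs, whereas Acads, the short-chain enzyme, lay at 294 to 428 CPM and Acadl at 113 to 174 CPM. In PMN Acadvl had 1348 to 5551 counts per library and Acads 0 to 1035. Exons of Acadvl overlap those of Dvl2 on the opposite strand (chr11:70000595-70012301, GRCm38), and Dvl2 had 1035 to 2324 counts in TECs and 13 to 1049 in PMN. Strand use in the counting is not given in the sources used here, and the part of this overlap in these values was not tested. No exon of the 9 genes overlapped a gene with counts. Garem2, on the opposite strand over the end of Hadha, was listed at 0 in both tables.

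Ptprc, which encodes the leukocyte antigen CD45, was higher in every glutamine than in every vehicle library of PMN, with a log2 fold change of 0.91 (edgeR unadjusted p = 0.0281, adjusted p = 1.0, DESeq2 unadjusted p = 0.108), and 5.86% of all tested PMN genes were higher without overlap. Lymphocyte markers, 10 genes of which 2 were tested, summed to 30.3 to 46.8 CPM with glutamine and 1.09 to 6.10 CPM with vehicle. Among them the B cell gene Cd79b lay at 18.5 to 31.4 CPM with glutamine and had 0 counts in all vehicle libraries (edgeR adjusted p = 0.693, DESeq2 adjusted p = 3.89e-10). Cd79b alone gave 31.4 of the 33.6 CPM in glutamine a, 18.5 of 30.3 in b and 23.9 of 46.8 in c. Whether the other lymphocyte markers differed as a set was not tested. The part of these markers in the Ptprc values was not tested.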
